A study of Mus musculus with 8 samples.

Results

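Type I interferon-stimulated genes are the genes that cells switch on when interferon alpha or beta reaches them. Their messenger RNA was measured here in mouse peritoneal macrophages on one-colour microarrays. The genes were a list of 34, chosen by symbol with earlier results of these data known. Of the 34, 32 had a probe with a name. A gene with more than 1 probe was represented by its brightest probe, averaged over the 8 arrays; the 32 genes had 43 probes. Mx1 and Mx2, antiviral GTPases, have no value here because the naming table paired them with no accession on the array. Every test was fitted to all 22910 features above background in at least 1 group, of which 14395 had a gene name.

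The study removed Fra-1 or Fra-2, subunits of the transcription factor AP-1 encoded by Fosl1 and Fosl2, and each of its 4 groups had 2 arrays. Fra-1 controls were labelled wild-type with Fra-1lox/lox and Fra-1 knockouts carried Fra-1lox/lox MxCre-/+; Fra-2 controls were labelled wild-type with Fra-2lox/lox and Fra-2 knockouts carried Fra-2lox/lox LysMCre-/+. All mice were of the 129/C57Bl6 background, of either sex and 8 weeks old, and controls were littermates. Cells washed from the peritoneum were cultured overnight and the adherent ones were kept. All 4 arrays of the Fra-1 line were labelled as thioglycollate elicited, a treatment that draws inflammatory cells into the peritoneum, and no array of the Fra-2 line was, so line and elicitation cannot be told apart. MxCre is driven by the promoter of the interferon-stimulated gene Mx1 and is switched on by interferon in many cell types; how it was switched on, and how long before harvest, is not given in the sources used here. LysMCre is active in myeloid cells. The labels do not say whether the 2 arrays of a group came from separate mice, so p-values measure the spread between these arrays.

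Type I interferon binds the receptor made of Ifnar1 and Ifnar2, whose kinases Jak1 and Tyk2 phosphorylate Stat2, among other factors. A complex that holds Stat2 and Irf9 then binds the interferon-stimulated response element in target promoters. The products detect foreign nucleic acid, degrade or sequester viral RNA, deplete nucleotides, block viruses at membranes or, as Usp18 does, damp the receptor. Macrophages keep many of these genes at a resting level that depends on continuous low signalling.

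The response element was searched as GAAA, then any 2 bases, then GAAA, on both strands of 300-base windows from 250 bases before to 50 bases after the annotated start (RefSeq, GRCm38.p6). Windows were given for 23 of the 34 genes, and 12 of the 23 (52.2%) held the element, against 3.99% of all 27025 genes with a window. The gamma-activated site TTCNNNGAA was in 7 of the 23 (30.4%), against 9.55% of all genes. The AP-1 site TGANTCA was also in 7 (30.4%), against 8.97%. Matches of different motifs may overlap, and a match describes letters, not binding. No window was given for Mx1, Mx2, Oas2, Usp18, Dhx58, Zbp1, Parp9, Parp14, Rtp4, Ifi204 and Ifi27l2a. The promoters of 4 genes are shown because these genes behaved differently on these arrays: Ifit1 and Isg15 were lower in the Fra-1 controls than in the Fra-2 controls, Rsad2 was higher, and Bst2 was not called. Each line holds the 150 bases before the start, read towards the gene, with response element matches in capitals. The stretches are Ifit1 at chr19:34640739-34640888 on the plus strand, Isg15 at chr4:156200819-156200968 on the minus strand, Rsad2 at chr12:26456453-26456602 on the minus strand and Bst2 at chr8:71537473-71537622 on the minus strand.
Ifit1: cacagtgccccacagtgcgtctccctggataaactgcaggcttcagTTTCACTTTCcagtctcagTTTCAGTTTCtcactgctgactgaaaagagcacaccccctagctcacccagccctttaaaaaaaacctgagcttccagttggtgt
Isg15: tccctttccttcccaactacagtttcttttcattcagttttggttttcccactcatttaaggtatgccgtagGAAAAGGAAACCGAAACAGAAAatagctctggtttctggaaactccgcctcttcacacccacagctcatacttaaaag
Rsad2: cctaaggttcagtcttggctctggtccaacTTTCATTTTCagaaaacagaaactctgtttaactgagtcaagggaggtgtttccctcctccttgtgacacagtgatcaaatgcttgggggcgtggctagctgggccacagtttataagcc
Bst2: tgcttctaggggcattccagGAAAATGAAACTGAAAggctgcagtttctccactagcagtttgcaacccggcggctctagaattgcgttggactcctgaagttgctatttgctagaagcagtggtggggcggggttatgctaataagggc
The match nearest the start ended 75 bases before it in Ifit1, 56 in Isg15, 110 in Rsad2 and 114 in Bst2. The 4 shown are all among the 12 genes with a match, so its presence in them does not bear on the direction of the differences. Rsad2 differed between the lines in the opposite direction to Ifit1 and Isg15, and its window held 1 AP-1 match as well. AP-1 matches were also found for Ifitm3, Ifi35, Xaf1 and Trim30a, which were lower in the Fra-1 controls. Ifit3 and Oas3, which were not called, had AP-1 matches too, and Oasl1, which was higher, had none. Whether these matches bear on the direction of the differences was not tested. No response element match was found for Oasl1, the other gene higher in the Fra-1 controls. The same held for Isg20, Samhd1, Dtx3l, Xaf1 and Ifi35, which were lower there.

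Between 47.7% and 57.6% of the 59305 spots of an array were well above background, and the signal at the 75th percentile was lowest on Fra-2 knockout 1 (315) and highest on Fra-1 control 2 (470). Slide 1 held 5 arrays and slide 2 held 3 (Fra-1 knockout 2, Fra-2 control 2 and Fra-2 knockout 2). Fosl1 read -2.73 and -1.97 in the Fra-1 controls and was not well above background in the Fra-1 knockouts, at least 3.91-fold lower (limma adjusted p = 0.364). Fosl2 went against the label: it read 5.51 and 5.57 in the Fra-2 controls and 6.43 and 7.14 in the arrays labelled Fra-2 knockout (adjusted p = 0.207). Whether that probe lies in the deleted part is not given in the sources used here. All 8 macrophage markers, among them Adgre1 and Csf1r, were well above background on every array. Of these 8, 5 were lower in the Fra-1 controls than in the Fra-2 controls and 1 was higher (median difference -1.01). Of 8 markers of large resident peritoneal macrophages, 6 were lower in the Fra-1 controls and 1 was higher (median -4.29). Of all features, 17.9% were lower and 18.1% higher in this comparison. The lines also differed in markers of other cells, on the normalized log2 scale: the summed B cell markers ran from 0.48 to 2.39 in the Fra-1 line and from 5.25 to 6.32 in the Fra-2 line, mast cell markers from 0.31 to 1.33 and from 5.30 to 6.97, fibroblast markers from 5.34 to 7.29 and from 0.46 to 1.69, and mesothelial markers from 2.25 to 3.88 and from -0.46 to -0.10. In such mixed samples, fewer cells of a type and less RNA per cell cannot be told apart.

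**Figure D1:**
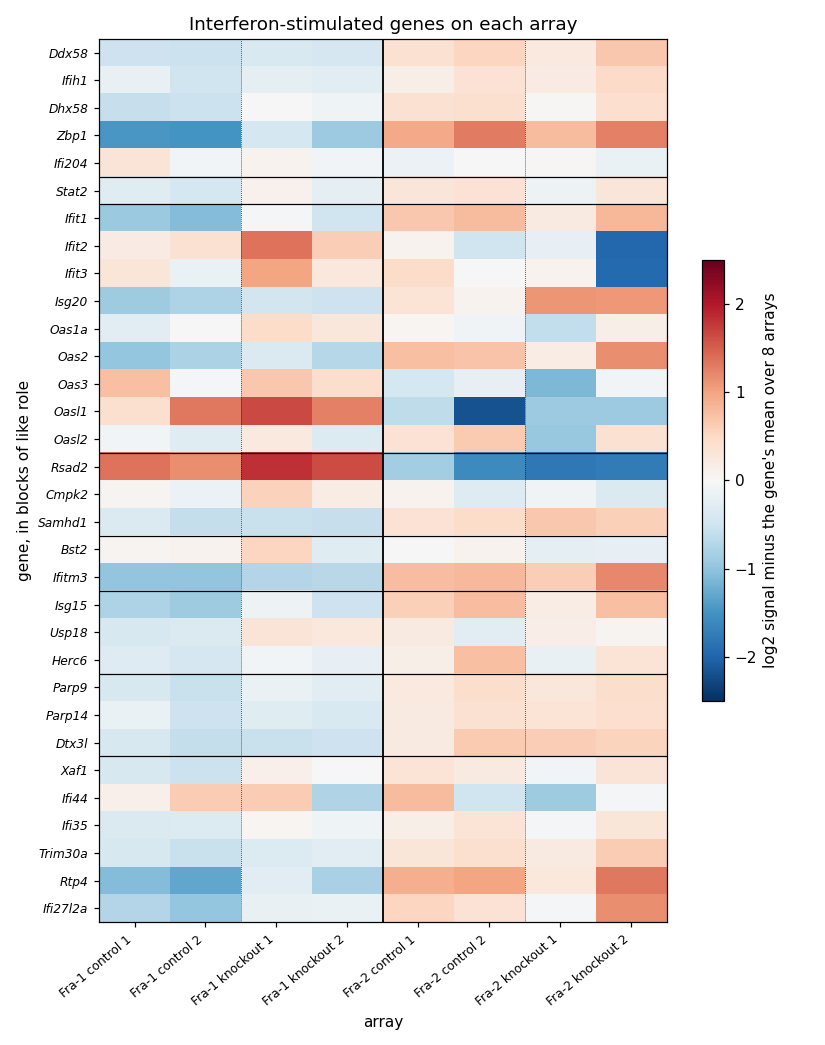
Heat map of the 32 interferon-stimulated genes (rows, in blocks of like role) on the 8 arrays (columns); colour is the normalized log2 signal minus the gene's mean over the 8 arrays. Most rows are blue on the left, in the Fra-1 line, and red on the right, in the Fra-2 line, while Rsad2 and Oasl1 show the reverse. For Ifit2 and Oas3, too, every Fra-1 line array lies above every Fra-2 line array, by a narrow margin.

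The lines differed most, in their controls. Of the 32 genes, 19 were lower in the Fra-1 controls than in the Fra-2 controls (59.4%; 17.9% of all features were lower) and 2 were higher (6.25%; 18.1% of all features). Zbp1, a sensor of nucleic acids in the Z conformation, was 6.05-fold lower, the transporting chaperone gene Rtp4 was 4.44-fold lower, and Ifitm3, which blocks viral entry, was 3.43-fold lower. Rsad2, which makes a chain-terminating nucleotide, and Oasl1, an inhibitor of Irf7 translation, were 5.60-fold and 4.83-fold higher. The median difference over the 32 genes was -0.72 on the log2 scale, against -0.03 over all features, and 8 of the 32 differences were positive (25%; 48.2% of all features). Both Fra-1 control arrays lay below both Fra-2 control arrays for 22 genes (68.8%; 37.3% of all features) and above for 4 (12.5%; 34.5%). A gene was called at an adjusted p under 0.05 from limma with Benjamini-Hochberg adjustment over all features. The line, the thioglycollate label and the marker levels above go together in this comparison, and the part of the other cell types in it was not tested.

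Among the 5 sensors of foreign nucleic acid, 4 were lower. Zbp1 read 0.92 and 0.90 in the Fra-1 controls, 1.94 and 1.48 in the Fra-1 knockouts, 3.33 and 3.68 in the Fra-2 controls, and 3.16 and 3.65 in the Fra-2 knockouts. All 4 arrays of the Fra-1 line lay below all 4 of the Fra-2 line. Between the controls it differed by -2.60 (SE 0.24, adjusted p = 0.000842). Dhx58, the regulatory member of the RIG-I-like receptors, read 0.94 and 0.98 against 1.90 and 1.92 in the controls, and 1.51 and 1.40 against 1.54 and 1.93 in the knockouts. The control arrays stood well apart (-0.95, SE 0.16, adjusted p = 0.00603), whereas the knockout arrays of the 2 lines were nearly touching. Ddx58, which encodes RIG-I, and Ifih1, which encodes the long-RNA sensor MDA5, differed by -0.98 (adjusted p = 0.00705) and -0.59 (adjusted p = 0.0381). The DNA sensor gene Ifi204 was not called, at 0.19 (95% interval -0.23 to 0.61).

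Stat2, the transcription factor specific to type I and III interferon receptors, read 2.93 and 2.80 in the Fra-1 controls and 3.54 and 3.60 in the Fra-2 controls. Its knockout arrays read 3.34 and 3.00 in the Fra-1 line and 3.10 and 3.53 in the Fra-2 line, so the knockouts overlapped where the controls did not. The control difference was -0.70 (SE 0.19, adjusted p = 0.0352).

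The 9 RNA-binding and RNA-degrading effectors were split. Ifit1, which binds viral RNA lacking a host cap, read -2.38 and -2.53 in the Fra-1 controls and -1.48 and -1.95 in the Fra-1 knockouts. In the Fra-2 line it read -0.78 and -0.66 in the controls and -1.23 and -0.62 in the knockouts. It was lower on every Fra-1 line array than on any Fra-2 line array, by -1.73 between controls (SE 0.25, adjusted p = 0.0037). The exonuclease gene Isg20 read 0.84 and 0.97 in the Fra-1 controls, 1.28 and 1.21 in the Fra-1 knockouts, 2.07 and 1.82 in the Fra-2 controls, and 2.84 and 2.81 in the Fra-2 knockouts. No 2 of its groups overlapped, and the controls differed by -1.04 (SE 0.13, adjusted p = 0.00242). Oas2, a synthetase of the second messenger that activates RNase L, was lower by -1.61 (adjusted p = 0.0112). Its relative Oasl1 ran the other way: 3.19 and 4.12 in the Fra-1 controls, 4.44 and 4.05 in the Fra-1 knockouts, 2.16 and 0.61 in the Fra-2 controls, and 1.89 and 1.88 in the Fra-2 knockouts. Every Fra-1 line array was above every Fra-2 line array for Oasl1, with a control difference of 2.27 (SE 0.55, adjusted p = 0.0221). The other five were not called: Oas3 differed by 0.68, Ifit2 by 0.49, Oas1a by -0.12, Ifit3 by -0.17 and Oasl2 by -0.69. Ifit and Oas genes have close relatives, and cross-hybridisation between them was not tested.

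The metabolic effectors also parted. Rsad2 read 1.40 and 1.19 in the Fra-1 controls, 1.87 and 1.66 in the Fra-1 knockouts, -0.83 and -1.55 in the Fra-2 controls, and -1.75 and -1.70 in the Fra-2 knockouts. The gap between the lines exceeded any gap between replicates, at 2.49 between controls (SE 0.25, adjusted p = 0.00108). Samhd1, which hydrolyses deoxynucleotides, was lower: 5.65 and 5.41 against 6.36 and 6.46 in the controls, a difference of -0.88 (SE 0.13, adjusted p = 0.00394). The dimmer probe of Samhd1 differed by -0.38 and was not called (limma adjusted p = 0.0652 in a fit of all kept probes). Cmpk2, a mitochondrial nucleotide kinase that lies next to Rsad2 in the genome, was not called (0.08, 95% interval -0.45 to 0.60), so it did not share the Rsad2 call.

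At membranes, Ifitm3 read 5.28 and 5.29 in the Fra-1 controls and 7.04 and 7.08 in the Fra-2 controls (-1.78, SE 0.19, adjusted p = 0.00143). Its knockout arrays read 5.53 and 5.56 in the Fra-1 line and 6.89 and 7.46 in the Fra-2 line, so all 4 arrays of the Fra-1 line lay below all 4 of the Fra-2 line. The tether Bst2 read 4.24 and 4.28 against 4.17 and 4.26 in the controls, and its difference of 0.04 had a 95% interval of -0.60 to 0.69.

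In the ISG15 system, Isg15, the ubiquitin-like modifier, read 2.70 and 2.58 in the Fra-1 controls, 3.35 and 2.96 in the Fra-1 knockouts, 4.08 and 4.24 in the Fra-2 controls, and 3.66 and 4.23 in the Fra-2 knockouts. The Fra-1 line lay below the Fra-2 line throughout, by -1.52 between controls (SE 0.23, adjusted p = 0.00463). Usp18, the protease that removes ISG15 and restrains the receptor, was not called: it read 1.18 and 1.21 against 1.81 and 1.29 (-0.35, adjusted p = 0.187). The ligase gene Herc6 was not called either (-0.83, adjusted p = 0.0539).

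Parp9, Parp14 and Dtx3l, whose products act together in ADP-ribosylation and ubiquitination, were all lower, by -0.81 (adjusted p = 0.00638), -0.63 (adjusted p = 0.0245) and -0.95 (adjusted p = 0.0083). Parp9 read 2.33 and 2.17 in the Fra-1 controls and 2.96 and 3.15 in the Fra-2 controls. Of the other 6 genes, 5 were lower. Rtp4 read 3.75 and 3.52 against 5.74 and 5.82 (-2.15, SE 0.36, adjusted p = 0.00636), and Ifi27l2a read 5.38 and 5.14 against 6.65 and 6.47 (-1.30, adjusted p = 0.0385). Trim30a, a restrainer of inflammatory signalling, differed by -0.83, the pro-apoptotic Xaf1 by -0.75 and the leucine zipper gene Ifi35 by -0.60. Ifi44 was well above background on 4 of the 8 arrays and was not called.

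Of the 21 calls, 12 stood under each of 17 other settings: Rsad2 above, and Zbp1, Ddx58, Dhx58, Isg15, Ifit1, Isg20, Samhd1, Ifitm3, Parp9, Dtx3l and Rtp4 below. The other 9, Oasl1 among them, were lost under at least 1 setting. Without Fra-1 control 2 there were 12 lower genes and 1 higher. Over both genotypes of each line, 4 arrays against 4, 19 genes were again lower (59.4%; 26.4% of all features) and 4 were higher (12.5%; 27.4%), now with Oas3 and Ifit2, and the median was -0.56. All 4 arrays of the Fra-1 line lay below all 4 of the Fra-2 line for 16 genes (50%; 24.7% of all features) and above them for 4 (12.5%; 26.4%). On slide 1 alone the median between the controls was -0.64, which is the same comparison as leaving out Fra-2 control 2. Between the knockouts of the 2 lines, which were not tested, 20 of 32 genes were lower in the Fra-1 line and the median difference was -0.25.

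**Figure D2:**
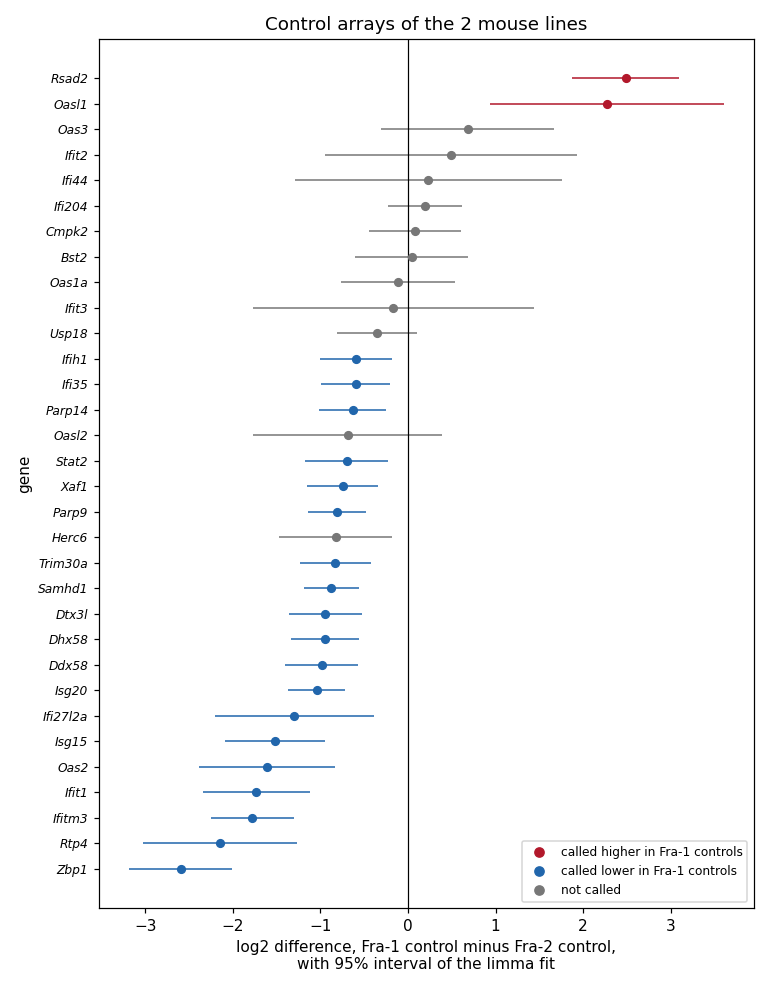
Log2 difference between Fra-1 and Fra-2 controls (horizontal axis) for each of the 32 genes (vertical axis); points are limma estimates from 2 arrays a group and bars are 95% intervals. The 19 genes called lower run from Zbp1 at -2.60 to Ifih1 at -0.59, and Rsad2 at 2.49 and Oasl1 at 2.27 are called higher.

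In the Fra-1 knockouts no gene of the list passed the test, but most values were a little higher than in the Fra-1 controls. The count was 0 of 32 in either direction by limma, with a smallest adjusted p of 0.409; of all features, 0% were called higher and 0.0131% lower. The difference was positive for 27 of 32 genes (84.4%; 55.2% of all features), with a median of 0.33 against 0.03 over all features and a range of -0.44 to 0.80. Both knockout arrays lay above both control arrays for 21 genes (65.6%; 27.6% of all features), and for 0 genes (18.7% of all features) did both lie below. At an unadjusted p under 0.05, 6 genes were higher (18.8%; 3.4% of all features) and 0 lower (5.43%). The Fra-1 control arrays are the same ones used between the lines, so those values and these are not separate evidence. Only the knockouts carry MxCre, and the sources used here do not say whether the controls were given what switched it on. Loss of Fra-1, the Cre and its switching on therefore cannot be told apart in this comparison.

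By role, all 9 RNA-binding and RNA-degrading effectors had positive differences, with a median of 0.51, as did all 3 genes of the ISG15 system, with a median also of 0.51. The sensors had 4 of 5 positive (median 0.12), and the ADP-ribosylation complex 1 of 3 (median -0.01). None of these differences passed the test.

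The smallest p belonged to Usp18, at 1.89 and 1.85 in the knockouts against 1.18 and 1.21 in the controls. Its arrays were close together within each group (SD 0.03 in both), and the 2 groups did not overlap. The difference was 0.67 (SE 0.18, 95% interval 0.22 to 1.13, adjusted p = 0.409). Zbp1 followed with 0.80 (SE 0.24, adjusted p = 0.442), Dhx58 with 0.50 (SE 0.16, adjusted p = 0.451) and Xaf1 with 0.52 (SE 0.17, adjusted p = 0.456). Xaf1 read 1.35 and 1.21 in the controls and 1.88 and 1.73 in the knockouts, so these groups were also separate. Ifit1 differed by 0.74 (SE 0.25, adjusted p = 0.489) and Isg20 by 0.34 (SE 0.13, adjusted p = 0.549). For each of these, both knockout arrays were the higher ones, and with Usp18 they are the 6 genes under an unadjusted p of 0.05.

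Isg15 differed by 0.51 (95% interval -0.06 to 1.08, adjusted p = 0.609) and Stat2 by 0.30 (95% interval -0.17 to 0.78, adjusted p = 0.685). Cmpk2 read -0.69 and -0.90 in the controls and -0.18 and -0.57 in the knockouts. Ifi35 read 2.08 and 2.11 in the controls against 2.49 and 2.33, and Oas1a, another synthetase, 5.54 and 5.84 against 6.29 and 6.11. These 3 were separate by group as well, with differences of 0.42, 0.31 and 0.51. The 5 genes with a negative difference were Ifi44 (-0.44), Ifi204 (-0.11), Samhd1 (-0.10), Dtx3l (-0.03) and Parp14 (-0.01), and for each of them control and knockout arrays overlapped. Without Fra-1 knockout 1 the differences of Isg15, Cmpk2 and Stat2 were 0.31, 0.23 and 0.13, and Stat2 was at 0.47 without Fra-1 knockout 2.

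The 2 Fra-1 knockout arrays were not alike. Fra-1 knockout 1 was above the mean of its line for 30 of 32 genes and Fra-1 knockout 2 for 21, while Fra-1 control 1 was above it for 7 and Fra-1 control 2 for 2. Fra-1 knockout 1 read higher than Fra-1 knockout 2 for 28 of the 32 genes; over all features this share was 38.3%. Without Fra-1 knockout 1 the median difference was 0.22 and 25 genes were positive; without Fra-1 knockout 2 it was 0.46 with 29 positive. Slide 1 held Fra-1 knockout 1 beside its 2 controls, the same arrays that remain without Fra-1 knockout 2. Its median of 0.46 is therefore the same value and not a further check. Slide 2 held no Fra-1 control, so it gives no value. With slide as a term in the fit the median was 0.26. All 6 fibroblast markers, which include Col1a1 and Dcn, had negative differences in the Fra-1 knockouts (summed level 6.77 to 7.29 in the controls and 5.34 to 5.98 in the knockouts, median difference -1.35, 0 called). Of 6 mesothelial markers 1 was positive (median -0.75), as were 0 of 5 mast cell markers (median -0.69) and 2 of 8 macrophage markers (median -0.03). Of 8 markers of large resident peritoneal macrophages 7 were positive (median 0.33). All 4 B cell markers tested (median 0.70) and all 5 conventional dendritic cell markers tested (median 0.64) were positive. In each of these lists 0 were called, and the part of these cells in the values above was not tested.

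**Figure D3:**
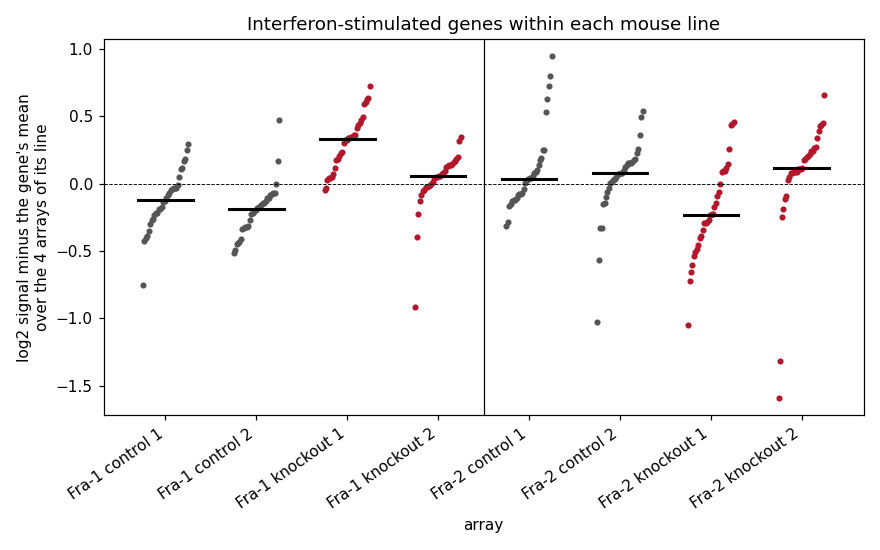
Log2 signal of each of the 32 genes minus its mean over the 4 arrays of the same mouse line (vertical axis), by array (horizontal axis); each dot is a gene, sorted within the array, and the bar is the median. The median is 0.33 on Fra-1 knockout 1 and 0.05 on Fra-1 knockout 2, against -0.12 and -0.19 on the Fra-1 controls, and it is -0.23 on Fra-2 knockout 1 and 0.11 on Fra-2 knockout 2.

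In the Fra-2 knockouts the list as a whole had a median close to that of all features, and Isg20 had the smallest p of its genes. Again 0 of 32 passed the test (0.00436% of all features were called higher and 0.00436% lower, by limma). Differences were positive for 12 genes (37.5%; 45.2% of all features), and the median was -0.11 against -0.03 over all features. Knockout arrays lay above both controls for 2 genes (6.25%; 15% of all features), Isg20 and Samhd1, and below them for 3 (9.38%; 20.1%), Rsad2, Bst2 and Stat2. At an unadjusted p under 0.05 there was 1 higher gene (3.12%; 3.01% of all features, a share near the background) and 0 lower (5.81%). Markers of other cells differed as well, with 0 called. Of the 4 neutrophil markers tested 3 were positive, with a median of 1.74 (summed level 3.74 to 4.18 in the controls and 4.87 to 5.54 in the knockouts). All 6 fibroblast markers were positive, with a median of 0.49. Of 8 markers of large resident peritoneal macrophages 5 were positive (median 0.57). Other lists went down: 0 of 3 eosinophil markers (median -1.06), 0 of 5 mast cell markers (median -0.21) and 1 of 5 conventional dendritic cell markers (median -0.24) were positive. Their part in the values of this list was not tested.

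The gene was Isg20, whose arrays are given above: the difference was 0.88 (SE 0.13, 95% interval 0.56 to 1.21, adjusted p = 0.132), a 1.84-fold higher signal on both knockout arrays. Under a prior spread that follows the mean signal, Isg20 was called (adjusted p = 0.0493); over all alternatives its adjusted p ran from 0.0493 to 0.618. Samhd1, the other separate gene, read 6.67 and 6.60 in the knockouts and 6.36 and 6.46 in the controls (0.23, adjusted p = 0.713). Rsad2 was on the low side, by -0.54 (95% interval -1.15 to 0.08, adjusted p = 0.628). Stat2 and Bst2 differed by -0.25 and -0.26. Without Fra-2 control 1 the value of Rsad2 was -0.17 and without Fra-2 control 2 it was -0.90, and Stat2 was at -0.04 without Fra-2 knockout 1 and at -0.47 without Fra-2 knockout 2.

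Several of the larger negative values rested on 1 array. Ifit3 read -1.12 and -1.57 in the controls and -1.49 and -3.52 in the knockouts, and Ifit2 read -2.94 and -3.51 against -3.22 and -4.98. Fra-2 knockout 2 alone was far down for both of these neighbouring Ifit genes, and Ifit2 was not well above background there. In contrast, Oasl2 read 3.62 and 3.91 in the controls against 2.32 and 3.64, so there it was Fra-2 knockout 1 that was low. Herc6 had -0.61 and 0.00 in the controls and -0.95 and -0.40 in the knockouts (-0.37), and Dhx58 differed by -0.18. Isg15, Ifit1 and Usp18 differed by -0.21, -0.20 and 0.14, and their knockout arrays overlapped the controls. With 1 array of the Fra-2 line left out, Herc6 ran from -0.68 to -0.06, and without Fra-2 knockout 1 Oasl2 was at -0.13; without Fra-2 knockout 2 Ifit3 was at -0.15.

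Fra-2 knockout 1 was below Fra-2 knockout 2 for 23 of the 32 genes and above it for 9, where 44.9% of all features were above. The median of Fra-2 knockout 2 minus Fra-2 knockout 1 was 0.39, against 0.04 over all features. Without regard to sign, the median gap was 0.42, against 0.24 over all features. Fra-2 knockout 1 thus read lower for most of the list. This array decided the sign of the median: without it the median difference was 0.10 and 22 genes were positive. Without Fra-2 knockout 2 the median was -0.28 with 9 positive. Each slide held 1 array of each Fra-2 group; the median was -0.28 on slide 1 and 0.04 on slide 2. Fra-2 knockout 1 was also the array with the lowest 75th percentile of signal and the fewest spots above background; the part of that in these values was not tested.

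**Figure D4:**
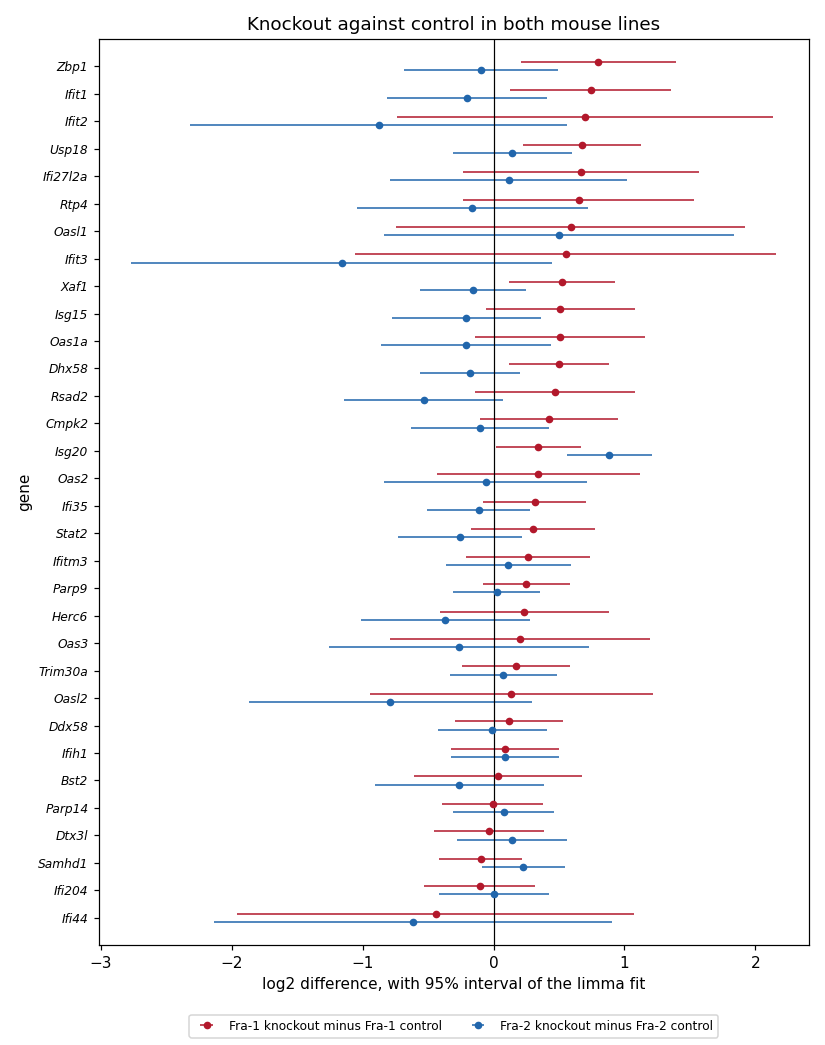
Log2 difference of knockout minus control (horizontal axis) for the 32 genes (vertical axis, ordered by the Fra-1 values); red is the Fra-1 line, blue the Fra-2 line, points are limma estimates from 2 arrays a group and bars 95% intervals. Red points lie to the right of 0 for 27 genes and blue points for 12, and Isg20 has the highest blue point, at 0.88.

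The difference between the 2 knockout effects was tested gene by gene, and it passed for 0 of 32 genes (0% of all features were called higher and 0.00436% lower, by limma). It was positive, that is the Fra-1 effect was the higher, for 27 genes (84.4%; 55.9% of all features), with a median of 0.50 against 0.05. At an unadjusted p under 0.05 there were 5 higher genes (15.6%; 5.4% of all features) and 1 lower (3.12%; 4.15%). The 5 were Dhx58 (0.68, adjusted p = 0.433), Xaf1 (0.68, adjusted p = 0.452), Rsad2 (1.0, adjusted p = 0.467), Ifit1 (0.94, adjusted p = 0.493) and Zbp1 (0.90, adjusted p = 0.50). The 1 lower gene was Isg20 (-0.54, adjusted p = 0.455). Isg15, Oas1a, Stat2 and Usp18 had 0.72, 0.72, 0.56 and 0.53. Without Fra-2 knockout 1 the values of Isg15, Oas1a and Stat2 were 0.44, 0.34 and 0.34, and Oas1a was at 1.1 without Fra-2 knockout 2. Leaving out Fra-2 control 1 gave 0.27 for Usp18 and 0.64 for Rsad2. Without Fra-2 knockout 1 the median was 0.26 and 19 genes were positive. The 2 knockouts also differ in the Cre, in the elicitation label and in the controls.

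**Figure D5:**
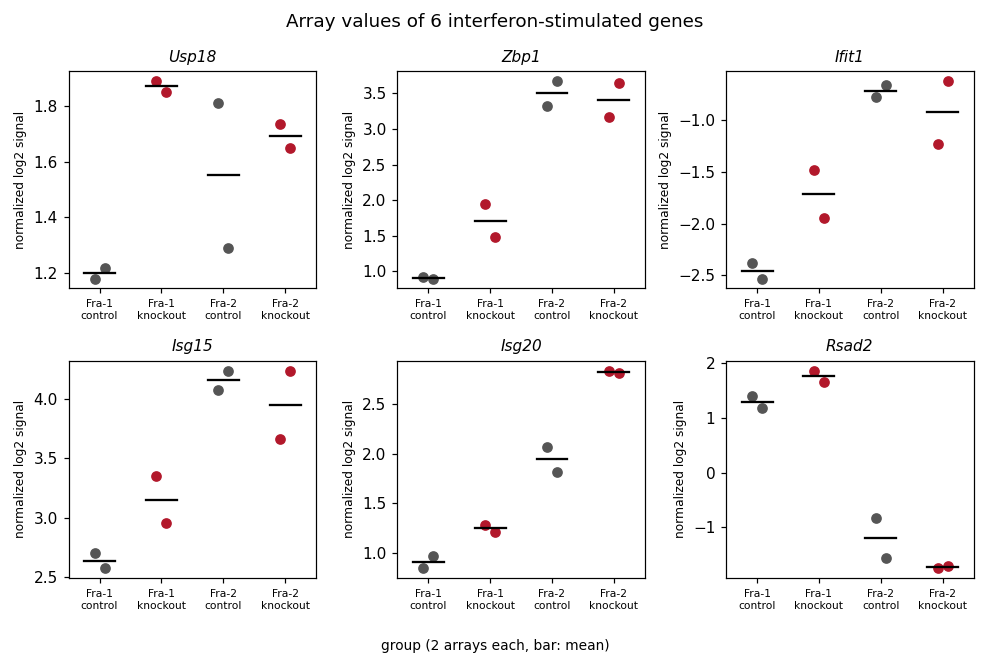
Normalized log2 signal (vertical axis, one scale per gene) of Usp18, Zbp1, Ifit1, Isg15, Isg20 and Rsad2 in the 4 groups; dots are arrays, 2 a group, grey for controls and red for knockouts, and bars are means. Usp18 reads 1.18 and 1.21 in the Fra-1 controls and 1.89 and 1.85 in the Fra-1 knockouts, Isg20 is highest in the Fra-2 knockouts, and Rsad2 is the only one of these whose controls are higher in the Fra-1 line.

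The 4 other lists of the pathway are read against the same shares of all features as above: 17.9% lower and 18.1% higher between the controls, and positive differences in 55.2% for the Fra-1 and 45.2% for the Fra-2 knockouts. Genes of every list were called between the controls, and in these lists limma called 0 genes in either knockout. At an unadjusted p under 0.05 from limma, the Fra-1 knockouts had Tgtp1, lower (5.43% of all features), and Ifnab, higher (3.4%). The Fra-2 knockouts had Ifnlr1 and Ptpn6, both higher (3.01% of all features). Each was the only such gene among the 13 to 20 tested in its list. Among ligands, Ifnb1, which encodes interferon beta, and Ifna4 were not well above background on any of the 8 arrays. Ifna1 and Ifnab were above it on all 8, Ifna2 and Ifna5 on 7; alpha interferon genes are near copies of each other, so their probes cannot be assigned with certainty. Ifng, the gene for interferon gamma, was above background on all 4 Fra-2 line arrays and on no Fra-1 line array. It thus passed the filter only through the Fra-2 line. It was at least 6.20-fold lower in the Fra-1 controls, and its limma adjusted p of 0.00238 was computed from their below-background signals. Ifng is made by T and NK cells, whose markers were also lower in the Fra-1 controls (summed level 0.36 to 0.70 against 1.85 to 1.98). The part of these cells was not tested. Of 13 interferon and receptor genes tested, 4 were lower and 2 higher in the Fra-1 controls, where 17.9% and 18.1% of all features were. Both chains of the type I receptor were among the lower ones, Ifnar1 by -0.69 (adjusted p = 0.0217) and Ifnar2 by -0.88 (adjusted p = 0.00387), as was Ifngr1 by -0.86. Il10rb was higher by 1.01, and Ifnlr1, a chain of the interferon lambda receptor, was at least 1.56-fold higher. In the Fra-2 knockouts Ifnlr1 read -1.71 and -2.27 and was not well above background in the controls, at least 6.07-fold (adjusted p = 0.0962, not called). In the Fra-1 knockouts the smallest p of this list was that of Ifnab (0.50), and Ifng, next by p, was below background in both groups; after Ifnlr1 the next in the Fra-2 knockouts was Ifngr1 (0.24).

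Of 14 signalling factors, 9 were lower in the Fra-1 controls and 0 higher (17.9% and 18.1% of all features). Socs3 and Socs1, inhibitors of receptor kinases, differed by -4.11 (adjusted p = 0.000315) and -2.47 (adjusted p = 0.0111). The transcription factor genes Irf1, Stat3 and Irf2 differed by -2.09, -1.52 and -1.37, the kinase Jak2 by -1.49, and the phosphatases Ptpn6 and Ptpn2 by -1.03 and -0.73. Irf9, the partner of Stat2, differed by -0.48 (adjusted p = 0.0462). In the Fra-1 knockouts 6 of 14 were positive (55.2% of all features), and in the Fra-2 knockouts 8 (45.2%); the smallest p values were those of Ptpn6 (0.20) and Tyk2 (-0.24), and of Ptpn6 (0.38) and Stat3 (0.25).

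Of 19 genes upstream of interferon, 8 were lower in the Fra-1 controls and 2 higher (17.9% and 18.1% of all features). Irf7, the factor that amplifies interferon production, read 1.28 and 0.73 in the Fra-1 controls, 1.59 and 1.12 in the Fra-1 knockouts, 2.45 and 2.02 in the Fra-2 controls, and 1.91 and 2.61 in the Fra-2 knockouts. Its 4 arrays of each line did not overlap, and the control difference was -1.23 (adjusted p = 0.0326). The adaptor Myd88 differed by -1.63, Tlr3 by -1.22, the DNA-sensing adaptor Sting1 by -1.12, the kinase Ikbke by -1.07, Unc93b1 by -0.85, Traf3 by -0.83 and Rnf135 by -0.56. Ticam1 (0.84) and Irf5 (0.41) were higher. In the Fra-1 knockouts 10 of 19 were positive (55.2% of all features), with Irf3 (0.20) and Traf3 (-0.30) first by p; in the Fra-2 knockouts 14 were (45.2% of all features), with Sting1 (0.45) and Ikbke (-0.46) first.

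Genes that lean to interferon gamma had a median difference of -1.17 between the controls over 20 genes, 15 of them lower and 0 higher (17.9% and 18.1% of all features). The guanylate-binding protein genes Gbp5, Gbp7, Gbp2 and Gbp3 differed by -5.44, -3.63, -3.60 and -2.93, and the chemokine Cxcl9 by -3.66 (adjusted p = 0.00148). Irgm2, Igtp and Iigp1, guanosine triphosphatases that act on pathogen vacuoles, differed by -1.79, -1.44 and -0.96. The antigen presentation genes Psmb9, Tap1, Psmb10, Psmb8, Nlrc5, Tap2 and Tapbp lay between -1.29 and -0.68. Cxcl10, which both kinds of interferon induce, was not called (0.03). In the Fra-1 knockouts 17 of 20 were positive (55.2% of all features) with a median of 0.17; the smallest p values were those of Tgtp1 (at least 1.38-fold lower, adjusted p = 0.553) and Cxcl10 (-0.57). In the Fra-2 knockouts 5 of 20 were positive (45.2% of all features) with a median of -0.10, led by Cxcl10 (-0.49) and Cd274 (-0.54).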

How the data were processed

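RNA of adherent peritoneal cells was hybridised to 8 Agilent arrays in Cy3. The deposited scanner files, made with Feature Extraction 11.5.1.1 (protocol GE1_1105_Oct12) per the file headers, hold background-subtracted processed signals, an intensity on a linear scale, with 0 or 1 flags as other columns. The deposited series matrix holds log2 values with every probe's median at 0, and its differences between arrays followed those of the scanner files. The authors' array design used build mm9, per the file headers.

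Spots flagged as outliers (191 to 317 an array) were left out and spots of a probe averaged. The measure was log2 intensity relative to the 75th percentile of the array's noncontrol probes. A probe was kept where some group had it well above background on both arrays, and named through RefSeq accessions: 28026 of 55681 probes, 21154 genes. Group means of all 8 arrays were fitted with limma 3.58.1 in R 4.3.3 (residual degrees of freedom 4, prior 1.99), with Benjamini-Hochberg adjustment within each comparison over 22910 features; SE is moderated. The fit was tested on simulated data. Below-background groups give a fold only as a bound: the brighter group's mean over, per array, the higher of the probe's own signal and the lowest signal well above background. Their p-values were computed from the signals as read, those below background included. Marker levels are log2 of summed linear signals, and arrays limit precision by their number.

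Array values are given for Isg15, Usp18, Ifit1 and Stat2 and the up to 10 genes with the smallest p in each comparison; genes of the pathway lists are named where called, or the leading ones by p; further genes were named after their values were seen. The genes, lists and tests were chosen with earlier results of these data known. Alternatives were background correction with normexp (offset 50), quantile normalization, the deposited log2 matrix, no filter, a common floor, the mean of probes, slide as a term, a trended prior, only the groups compared, both genotypes of each line, and each array left out. Of 11 genes with 2 probes, 9 had the same sign in both in each comparison; the exceptions were Ifih1 and Samhd1 in the Fra-1 knockouts, Herc6 and Zbp1 in the Fra-2 knockouts, and Cmpk2 and Herc6 between the controls. Plots used matplotlib 3.10.9, pandas 2.3.3 and numpy 2.4.6 under Python 3.11.15.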

Additional observations from a re-analysis of the deposited data

How the results depend on the processing

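With 2 arrays a group precision was limited, and dim genes such as Ifi44 and Ifit2 were read least surely. In the Fra-1 knockouts the list kept 0 calls under every alternative run, with medians of 0.22 to 0.46 over the left-out arrays. In the Fra-2 knockouts the trended prior gave 1 higher gene, Isg20; the median ran from -0.28 to 0.10 over the left-out arrays, was 0.10 without Fra-2 knockout 1, and was -0.28 within slide 1. Over the left-out arrays Isg15 ran from -0.50 to 0.075, Ifit1 from -0.51 to 0.10 and Dhx58 from -0.37 to 0.016, each positive without Fra-2 knockout 1; Ifit2 ran from -1.76 to 0.00062, where the first value rests on Fra-2 knockout 2, on which it was below background, and is no measured fold, and the second leaves that array out, and Usp18 from -0.12, without Fra-2 control 2, to 0.40. The median of the difference between knockout effects ran from 0.26 to 0.65 over the left-out arrays. Between the controls, leaving out 1 array gave 12 to 20 lower and 1 to 2 higher genes, the fit of only the groups compared gave 16 and 1, and both genotypes gave 4 higher with a median of -0.56. Leaving out the filter, or adding slide as a term, gave 14 lower genes and 2 higher. The causes of these changes were not tested. The labels give the groups no shared replicate numbers to pair by; slide was used as a term instead.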
